A study of Rattus norvegicus with 24 samples.

Results

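Lung miRNAs of rats that inhaled hexanal at 600 ppm, the lowest dose of the study, were compared with those of rats that breathed filtered clean air. The comparison used the 6 arrays labelled 600 ppm and the 6 control arrays, 12 of the 24 arrays in the series, with 3 males and 3 females in each group and 1 array per rat. All rats were Fischer-344, an inbred laboratory strain, about 7 to 8 weeks old, and were exposed in 5 weekly blocks of 5 days, 4 h each day, according to the labels. Titles of the arrays name the dose in ppm while the protocol writes the same number as milligrams per cubic metre, so 600 ppm serves here as the name of the group and the concentration was not settled. Each array held 719 rat miRNAs, of which 283 were tested because at least 1 of their probes was well above background on 6 or more of the 24 arrays.

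Hexanal is an aliphatic aldehyde with which lung cells come into contact after inhalation. A miRNA is a short RNA that guides the silencing machinery to messenger RNAs, chiefly through its seed, the bases 2 to 8 from its 5′ end, so that miRNAs with the same seed can reach many of the same targets. In the lung, the miR-200 family is known as a mark of epithelium, the miR-34 and miR-449 families of ciliated airway cells, miR-126 of endothelium, and miR-142, miR-150 and miR-223 of white blood cells. Whole lung mixes these cells, and in such bulk RNA fewer cells of a type and less RNA per cell cannot be told apart.

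The arrays lay on 3 slides, and this shaped what could be compared. Slide 1 held the 3 control males and the 3 males at 600 ppm. Slide 2 held the 3 control females with 1 female at 600 ppm, and the other 2 females at 600 ppm were on slide 3, which held no control. Among females, 1 exposed rat only could therefore be set against controls of its own slide, and the slide 1 males gave the comparison within a slide.

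The 75th percentile of array brightness over the probes detected on all arrays was 932 ± 254 (SD, n = 6) scanner units in the control group and 875 ± 144 (SD, n = 6) at 600 ppm (two-sided exact permutation test, p = 0.628). On slide 1 it was 1158 ± 83.3 in control males and 910 ± 203 in exposed males (SD, n = 3 each, exact p = 0.10, the smallest that 3 against 3 allows). The lowest of these was 677 in male 8, while the other 5 male arrays of both groups lay between 1000 and 1226. Scaling made this percentile equal on all arrays, and whether other differences between the arrays remained in the levels used below was not tested. No pair of the 12 arrays held identical values, and the Pearson correlation of their log2 levels over the 283 miRNAs was between 0.980 and 0.998.

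The markers set for lung were found. In all 6 controls, 6 of 9 miR-200 family miRNAs, 7 of 10 ciliated cell miRNAs, 4 of 7 endothelial miRNAs and 6 of 8 smooth muscle and fibroblast miRNAs on the array were well above background. Of 10 miRNAs known from liver, neurons and pancreas, 8 were above background on no control array, and miR-122-5p, the abundant miRNA of hepatocytes, was above it on all 6.

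The miRNAs on which the results turn are shown with their mature sequences from RefSeq (build GRCr8), which held 249 of the 283 tested names. They are written 5′ to 3′ in lower case with the seed in capitals. The first 3 come from neighbouring genes and are shown because all of them had the higher level in exposed males, with groups that did not overlap.
rno-miR-182: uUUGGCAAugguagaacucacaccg
rno-miR-96-5p: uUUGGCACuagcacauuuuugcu
rno-miR-183-5p: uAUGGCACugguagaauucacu
The next pair shares a seed and belongs to the feedback on inflammatory signalling, and miR-449a-5p had the largest difference in males.
rno-miR-146b-5p: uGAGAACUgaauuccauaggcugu
rno-miR-146a-5p: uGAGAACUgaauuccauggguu
rno-miR-449a-5p: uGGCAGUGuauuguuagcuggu
The last ones are an epithelial miRNA and both arms of the leukocyte hairpin miR-142. miR-141-3p and miR-142-3p were among the 10 smallest p over both sexes, and miR-142-5p is shown as the partner arm.
rno-miR-141-3p: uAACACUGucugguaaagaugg
rno-miR-142-3p: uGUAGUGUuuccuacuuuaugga
rno-miR-142-5p: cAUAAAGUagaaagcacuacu

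Over all rats, no lung miRNA passed the test for a difference between 600 ppm and clean air. None of the 283 reached an adjusted p of 0.05 in limma with sex as a covariate (0%, smallest adjusted p = 0.996). An unadjusted p below 0.05 was reached by 10 miRNAs (3.53%), 5 with the higher mean at 600 ppm and 5 with the higher mean in controls, where 14.15 would be below it if no miRNA differed. The median difference, written throughout as 600 ppm minus control on the log2 scale, was 0.02, and single miRNAs lay between -0.52 and 0.72.

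Most intervals were narrow. The median standard error was 0.09, and the 95% interval of 253 of the 283 miRNAs lay wholly within a 1.5-fold change in either direction. For these 253 a mean change larger than 1.5-fold over both sexes was outside the interval, and for the other 30 it was not. Of the 283, 211 were above background on all 24 arrays. In dimmer ones the floor draws levels together, so a narrow interval there does not bound the true change. This fit held no term for the slide. With the slide added as a block to the fit of all 24 arrays, there were again 0 calls (smallest adjusted p = 0.612, 15 with an unadjusted p below 0.05), and 260 intervals lay within 1.5-fold.

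**Figure D1:**
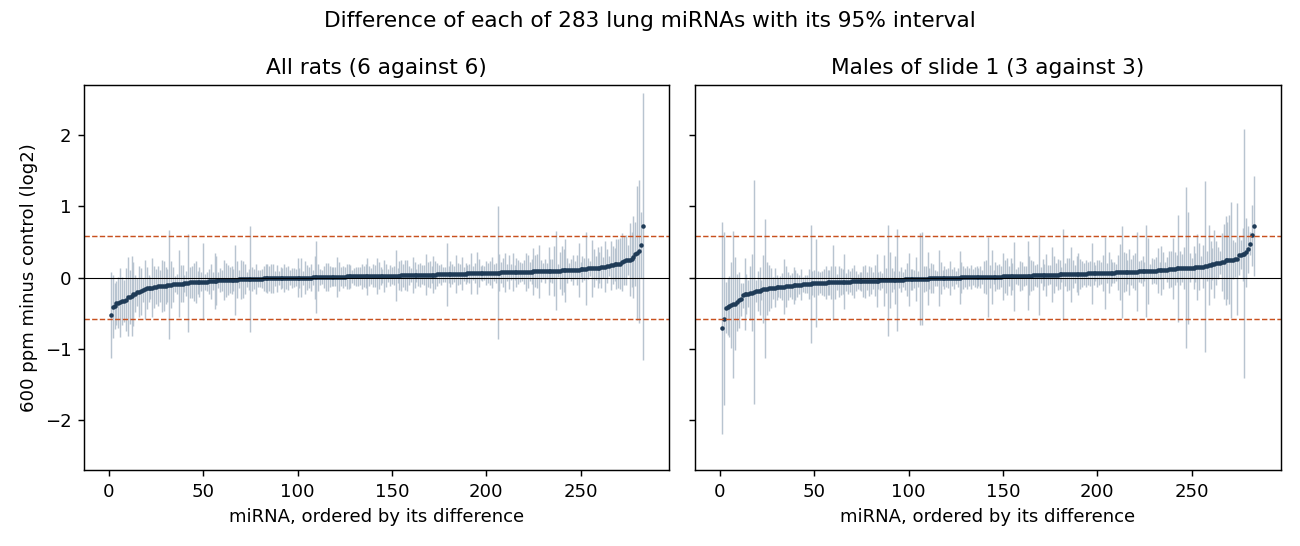
Difference between 600 ppm and control for each of the 283 miRNAs (points, log2), ordered by size, with its 95% interval from limma (vertical lines). The left panel has all rats and the right panel the slide 1 males. Dashed lines mark 1.5-fold, which 1 miRNA passed on the left and 3 on the right.

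The leading miRNAs over all rats were small differences. The smallest unadjusted p belonged to miR-134-5p, a miRNA of the imprinted Dlk1-Dio3 region best known from neurons. Its control levels, as log2 of scaled intensity, were 4.46, 4.22 and 3.90 in males and 4.00, 4.63 and 4.58 in females, against 3.85, 4.00 and 3.69 in exposed males and 4.47, 3.88 and 3.50 in exposed females. The groups overlapped, and the difference was -0.40 ± 0.16 (SE). It was well above background in 6 of 6 controls and 3 of 6 exposed rats, so that this is a difference near the detection limit, and its sign turned with another background correction.

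miR-141-3p, a member of the epithelial miR-200 family, was bright, with a small spread between rats. The 3 control males each read 10.13 and the exposed males 10.23, 10.22 and 10.21, while control females read 10.20, 10.23 and 10.09 and exposed females 10.39, 10.25 and 10.38. All 6 exposed rats lay above the control mean, and 15 of the 283 miRNAs had all 6 on the same side of it. The difference was 0.13 ± 0.05 (SE), or 1.09-fold, and the unadjusted limma p was 0.017 with an adjusted p of 0.996. Its 2 probes gave 0.17 and 0.09. The unadjusted limma p depended on the processing, at 0.39 with its brightest probe alone and 0.13 with scaling over all probes. All 6 tested members had a positive difference over all rats (0.02 to 0.13, median 0.09, against 0.02 over all miRNAs), although with normexp background correction the family lay 0.21 below the median of all miRNAs. 2 of them, miR-141-3p and miR-200b-3p, had an unadjusted p below 0.05, beside 10 of all 283 (3.53%), and 179 of the 283 had a positive difference. In the slide 1 males the median of the family was 0.04, against 0.01 over all miRNAs, and in females it was 0.16.

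The other leading miRNAs over all rats were miR-182 (0.25) and miR-30d-5p (0.16), miR-143-5p of smooth muscle (0.10) and miR-200b-3p (0.11) on the higher side. On the lower side were miR-6215 (-0.36), miR-150-3p (-0.33), miR-142-3p (-0.20) and miR-130b-3p (-0.17). None of them had groups that stood apart, and in none of the 283 miRNAs did the 6 exposed rats lie wholly above or below the 6 controls. miR-6215 lay below the control mean in 6 of 6 exposed rats, at 4.27, 4.18 and 4.33 in males and 3.84, 3.81 and 3.74 in females, with control males at 4.87, 4.81 and 4.37 and control females at 3.92, 4.35 and 3.99. It was 1 of the 15 miRNAs of 283 with all 6 exposed rats on the same side of the control mean. Its male groups did not overlap and its female groups did not overlap either, although the 2 sexes together did. miR-141-3p also had groups that did not overlap in either sex, so this was not particular to miR-6215. In males alone groups did not overlap for 37 of the 283 (13.1%), and the share in both sexes was not counted. miR-6215 was dim and was not well above background in exposed female 27. With the slide as a block it had the smallest unadjusted limma p of all miRNAs (0.0035, difference -0.39), and the adjusted p was 0.612. miR-6215, miR-150-3p and miR-130b-3p turned sign with normexp background correction, under which the median of all miRNAs was 0.32.

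In the slide 1 males, the 3 tested miRNAs of the miR-183 cluster had higher means at 600 ppm, by 1.25-fold to 1.39-fold, and in each the 3 exposed rats lay above the 3 controls. miR-183, miR-96 and miR-182 are made from neighbouring genes and are best known together from sensory cells. Their hairpins lie on the minus strand of chromosome 4 within 3908 bases (GRCr8 chr4:59752246-59756153). Mir182 is at 59752246 to 59752307, Mir96 at 59755841 to 59755946 and Mir183 at 59756044 to 59756153, so that Mir96 and Mir183 are 97 bases apart. Their seeds are not the same but share the 5 bases UGGCA.

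miR-182 read 4.97, 4.94 and 5.09 in control males and 5.39, 5.53 and 5.51 in males at 600 ppm. The exposed males stood clear of the controls by more than the spread within either group. The difference was 0.47 ± 0.06 (SE), or 1.39-fold, with a 95% interval of 0.31 to 0.63, the smallest unadjusted limma p of the comparison (0.00044) and an adjusted p of 0.126.

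miR-96-5p read 7.21, 7.09 and 7.31 in control males and 7.43, 7.50 and 7.63 in exposed males, a difference of 0.32 ± 0.08 (SE). miR-183-5p read 4.60, 4.57 and 4.64 in control males and 4.76, 4.97 and 5.26 in exposed males, a difference of 0.39 ± 0.13 (SE). In both, each exposed male was above each control male, and the adjusted limma p of both was 0.712. Each of the 3 miRNAs was measured by 2 probes, and all 6 probes had a higher mean in exposed males, by 0.31 to 0.55. Male 8, whose array was the dimmest of these males, had the highest miR-96-5p and miR-183-5p. Without it the differences were 0.46 for miR-182, 0.26 for miR-96-5p and 0.26 for miR-183-5p. Groups that did not overlap were found for 37 of the 283 miRNAs in these males (13.1%), 19 of them with exposed rats higher. The cluster median stayed 0.18 to 0.49 above the median of all miRNAs in 18 alternatives, while in the unscaled series table, where all miRNAs had a median of -0.38, miR-96-5p itself was at -0.06. With normexp background correction the differences shrank to 0.21 for miR-182, 0.25 for miR-96-5p and 0.15 for miR-183-5p. Their unadjusted limma p were then 0.32, 0.11 and 0.51.

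RefSeq placed 14 groups of neighbouring miRNA genes, with gaps of at most 10 kb, that had 3 or more tested miRNAs. Only tested miRNAs with a RefSeq sequence under the same name at a single place were counted, so some groups lack tested members. The miR-183 cluster had the highest median difference in the slide 1 males, 0.39, followed by the group of let-7e, miR-99b and miR-125a at 0.10. It was the one of the 14 in which all counted members had exposed and control rats that did not overlap. Of all 283 miRNAs, 37 (13.1%) had such groups in these males. The cluster had 3 counted members while the group from Mir450a1 to Mir322 had 8, and fewer members meet this more easily. This grouping was made after the values were seen and is a description. The lowest median, -0.25, was in the group on chromosome X from Mir3585 to Mir547.

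The cluster gave no such picture in females. miR-182 read 4.96, 4.97 and 4.73 in control females and 4.86, 4.87 and 4.99 in exposed females, a difference of 0.02. miR-96-5p read 7.37, 7.58 and 7.16 in controls against 7.16, 7.31 and 7.42, a difference of -0.08. For miR-183-5p the control females read 5.71, 5.83 and 5.50 and the exposed females 5.43, 5.46 and 5.57, a difference of -0.19. The difference between the male and the female effect was 0.45 ± 0.11 (SE) for miR-182, 0.40 ± 0.16 for miR-96-5p and 0.59 ± 0.17 for miR-183-5p, with unadjusted limma p of 0.0022, 0.030 and 0.0062 and adjusted p of 0.249, 0.371 and 0.249, so that the sexes were not shown to differ. The sign of these differences between the sexes depended on the processing. With normexp background correction they were -0.49 for miR-182, -0.15 for miR-96-5p and -0.43 for miR-183-5p, beside a median of -0.57 over all miRNAs. In the unscaled series table they were -0.18, -0.24 and -0.02, beside a median of -0.63. Control females had more miR-183-5p than control males on slides that also differed, and sex and slide cannot be told apart there.

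**Figure D2:**
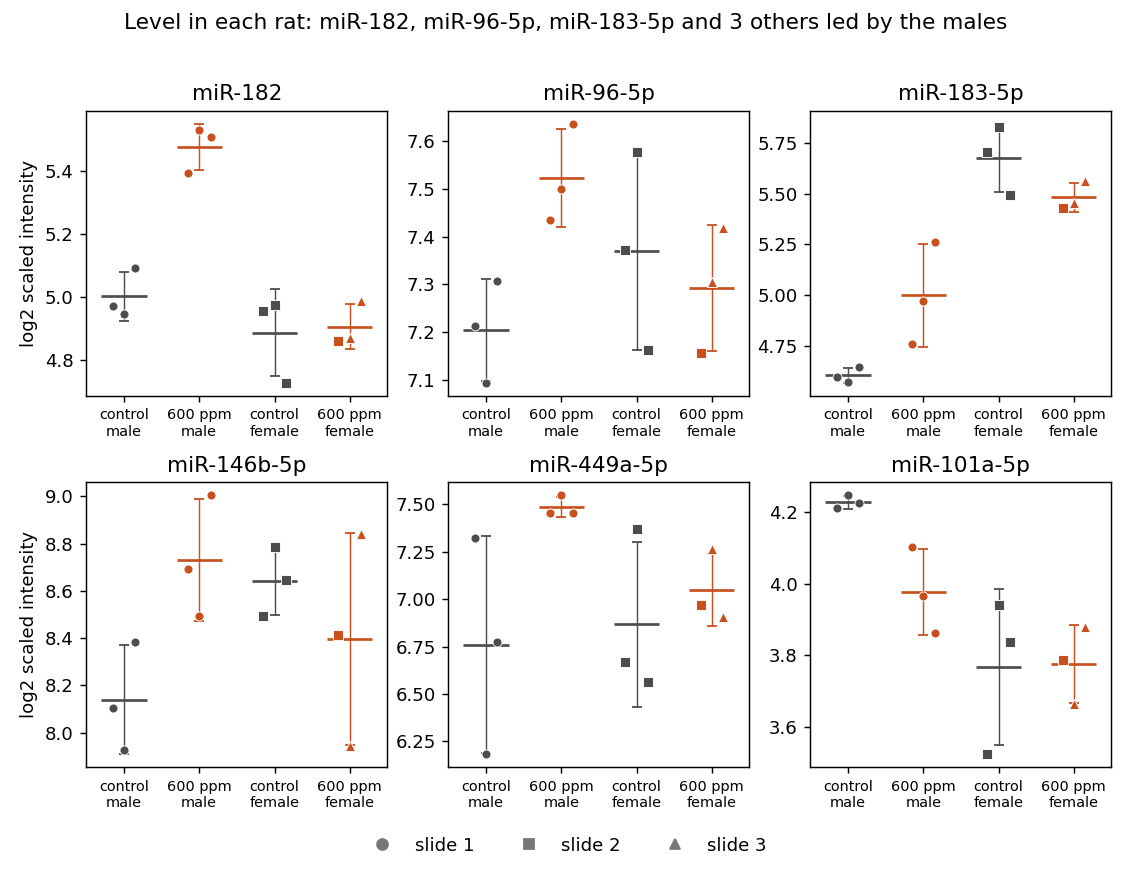
Level of 6 miRNAs in each of the 12 rats (log2 scaled intensity), by group and sex. Points are rats, their shape gives the slide, and the bar and whiskers are the mean and SD of 3 rats. For miR-182, miR-96-5p and miR-183-5p all exposed males lie above all control males, and in females the groups overlap.

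3 miRNAs had a mean difference of 1.5-fold or more in the slide 1 males. miR-449a-5p, which belongs with the miR-34 miRNAs to the programme of multiciliated airway cells, had the largest difference, 0.73 ± 0.28 (SE), or 1.65-fold. The exposed males were close together at 7.46, 7.55 and 7.45, and the control males were spread at 7.32, 6.18 and 6.78. The groups did not overlap, the difference was 0.44 without control male 2, and the adjusted limma p was 0.763 with a 95% interval from 0.03 to 1.43. In females the levels were 6.67, 7.37 and 6.56 in controls and 6.97, 7.26 and 6.91 at 600 ppm, which overlap. 4 other tested miRNAs carry its seed GGCAGUG, namely miR-34a-5p, miR-34b-5p, miR-34c-5p and miR-449c-5p, and their differences in the same males were 0.02, 0.08, 0.09 and 0.08.

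miR-146b-5p, which like miR-146a is known to restrain Toll-like receptor signalling, read 8.11, 7.93 and 8.38 in control males and 8.69, 8.50 and 9.00 in exposed males. The groups did not overlap and the difference was 0.59 ± 0.17 (SE), or 1.51-fold, with a 95% interval from 0.16 to 1.02 and an adjusted limma p of 0.712. Both of its probes gave 0.59. In females it was lower at 600 ppm, by a mean of -0.24, with exposed levels of 8.41, 7.94 and 8.84 around control levels of 8.49, 8.78 and 8.64. miR-146a-5p, with the same seed, had a difference of 0.12 in males, where its groups overlapped.

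miR-127-3p of the Dlk1-Dio3 region had the lowest difference, -0.70 ± 0.60 (SE), but its level varied widely among control males, at 3.99, 5.75 and 3.51, against 4.10, 3.50 and 3.53 in exposed males. Without control male 2 the difference was -0.039. Of the 9 tested miRNAs of the Dlk1-Dio3 list, which does not hold every miRNA of the region, 4 had the higher mean in exposed males and 5 the lower, and none had an unadjusted p below 0.05. The list had a median of -0.15 in the slide 1 males against 0.01 over all miRNAs, and of -0.07 over all rats. Without control male 2 the median was 0 in the slide 1 males and 0.075 over all rats.

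Other miRNAs with small p in the slide 1 males lay on the lower side. miR-101a-5p, the minor arm of a miRNA that targets Ezh2, read 4.21, 4.25 and 4.22 in control males and 4.10, 3.97 and 3.86 in exposed males, a difference of -0.25 ± 0.07 (SE). Groups also stood apart for miR-505-3p (-0.17), miR-328a-5p (-0.19), miR-3564 (-0.31) and miR-6215 (-0.42), and on the higher side for miR-3593-3p (0.21). Groups did not overlap for 37 of all 283 miRNAs in these males (13.1%). Those named were picked for a small p in the same rats, which favours groups that stand apart. miR-3564 was near the floor in exposed males, at 3.52, 3.56 and 3.65. The 2 probes of miR-505-3p were unlike, at -0.28 and -0.06. In all, limma called 0 of the 283 miRNAs in these males after adjustment, with an unadjusted p below 0.05 for 17 (6.01%), 9 higher and 8 lower, against 14.15 that would be below it if none differed. The 95% interval lay within 1.5-fold for 234 miRNAs, fewer than over all rats. Here too the floor narrows the intervals of dim miRNAs.

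The mean difference had the same sign in both sexes for 128 of the 283 miRNAs (45.2%), and across miRNAs, which are not independent replicates, Pearson's r between the 2 differences was -0.06 and Spearman's rho -0.16. The sexes share no rats, and they lay on different slides. The test of the difference between the male and female effects gave 0 calls (smallest adjusted p = 0.249), with an unadjusted p below 0.05 for 29 miRNAs (10.2%). The smallest unadjusted limma p was 0.0011, for miR-130b-3p. It lay at 3.51, 3.57 and 3.52 in control males and 3.51, 3.52 and 3.59 in exposed males, near the floor of detection, and at 4.10, 4.02 and 4.02 in control females against 3.76, 3.73 and 3.59 in exposed females.

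The spread of differences over miRNAs was 0.15 (SD, log2) in the slide 1 males, 0.21 for the exposed female of slide 2 against the control females of that slide, and 0.29 for the 2 exposed females of slide 3 against controls on slide 2. These contrasts do not have equal numbers of rats. Differences of 1.5-fold or more were found for 3, 7 and 20 miRNAs.

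**Figure D3:**
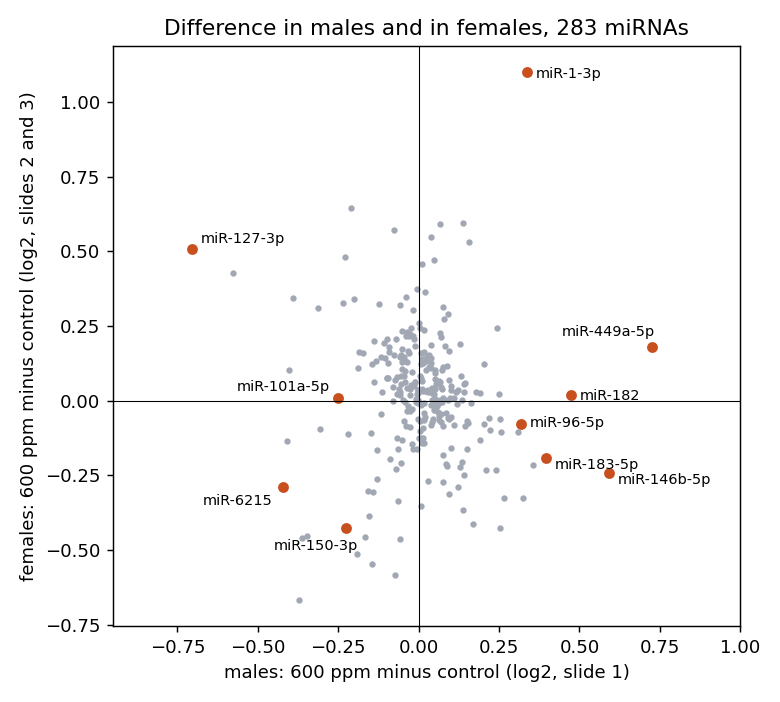
Difference between 600 ppm and control (log2) in males of slide 1 (horizontal) and in females (vertical) for 283 miRNAs, with 10 named ones in colour. The cloud shows no common direction, r = -0.06 across miRNAs. miR-182, miR-96-5p and miR-183-5p lie to the right near or below 0 for females.

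The leukocyte miRNAs had the lowest median over all rats of the lists with more than 1 tested member, although with a lower floor, with total gene signal and in the unscaled series table the Dlk1-Dio3 list was lower (-0.16, -0.32 and -0.32). All 7 tested members, both arms of miR-142, miR-150 and miR-342 and miR-223-3p, had a lower mean at 600 ppm, with a median of -0.15 against 0.02 over all miRNAs and a range of -0.33 to -0.06. 2 members, miR-150-3p and miR-142-3p, had an unadjusted p below 0.05, beside 10 of all 283 miRNAs (3.53%), and 0 passed after adjustment. The list median was 0.15 to 0.37 lower than that of all miRNAs under the 27 alternatives that give a fold change. These genes are expressed in lymphocytes and myeloid cells, so that a lung with fewer white cells and one with less of these miRNAs per cell would read alike.

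miR-142-3p, which is made throughout the blood lineage, read 10.65, 10.80 and 10.48 in control males and 10.61, 10.51 and 10.63 in exposed males. In females it read 10.92, 11.21 and 10.77 against 10.48, 10.63 and 10.78. The male groups overlapped fully, the female groups nearly parted, and the difference over all rats was -0.20 ± 0.09 (SE). Its partner arm miR-142-5p had a difference of -0.22 ± 0.12, and miR-150-5p, a miRNA of mature lymphocytes, one of -0.15 ± 0.08. miR-223-3p, a miRNA of neutrophils and macrophages, had -0.11 ± 0.13.

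By sex, 1 of the 7 leukocyte miRNAs was above 0 in the slide 1 males, where the median was -0.06 and miR-342-5p was at the floor in all 6 rats, and 0 of 7 in females, where it was -0.17. The male value depended on single rats, with a median of 0 and 3 of 7 above it without control male 2, and of -0.14 with 0 of 7 above 0 without control male 3 or without exposed male 8. With the slide as a block the median was -0.17 against 0.01 for all miRNAs, and the unadjusted limma p was 0.026 for miR-142-3p, 0.012 for miR-142-5p and 0.012 for miR-150-5p, with an adjusted p of 0.612 for miR-142-3p. With the normexp background correction 3 of the 7 were above 0 while the median of all miRNAs moved to 0.32, and the leukocyte median was -0.06. Over all rats the 3 tested red blood cell miRNAs were above 0, as were 179 of the 283 miRNAs. Of the 3, miR-144-5p was at 0.00079 with levels near the floor. The median of the 3 was 0.29 over all rats, 0.55 in females, 0.04 in the slide 1 males and 0.10 with the slide as a block. Their median in these males turned to -0.076 without control male 1 and -0.041 without control male 2, and was 0.23 without control male 3. miR-451-5p, which comes from erythrocytes, differed by 0.32 in the exposed female of slide 2 and by 0.73 in the 2 of slide 3, and the part of blood content in the other lists was not tested.

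**Figure D4:**
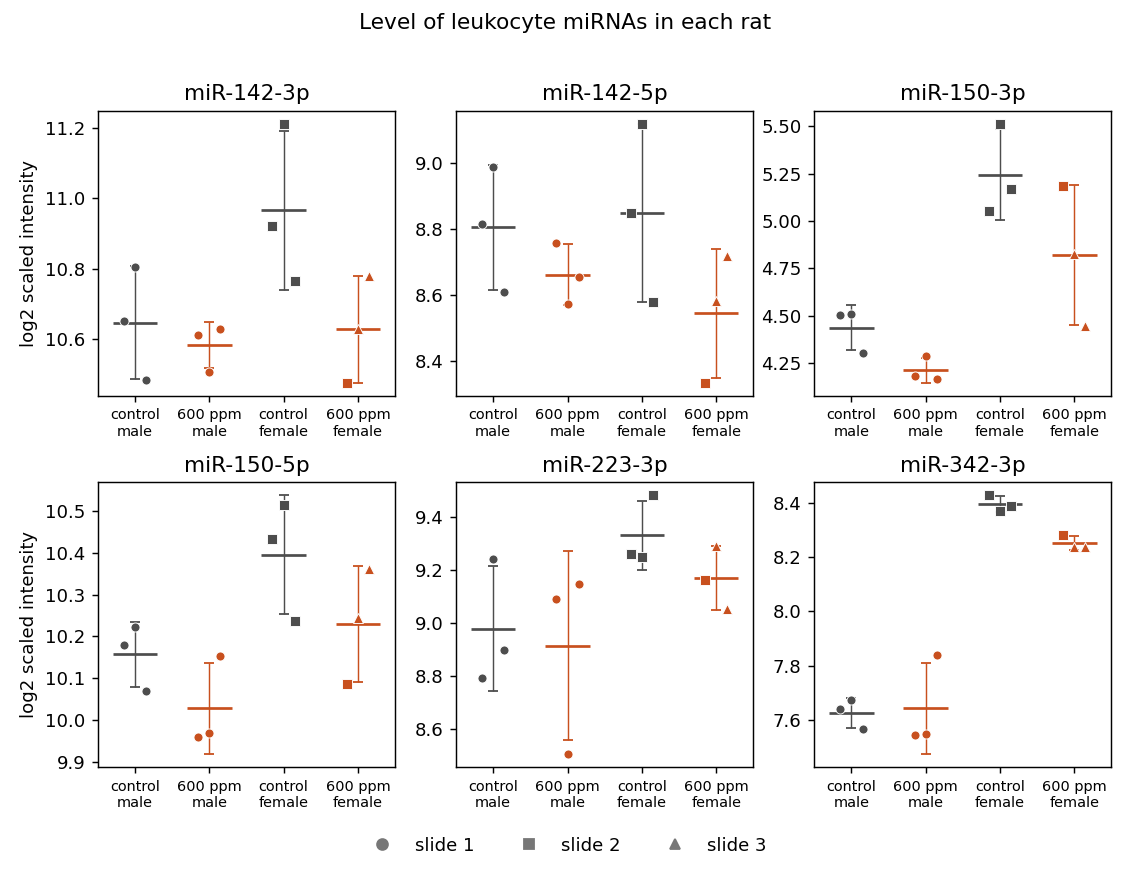
Level of 6 leukocyte miRNAs in each of the 12 rats (log2 scaled intensity), by group and sex, with point shape for the slide and bars and whiskers for the mean and SD of 3 rats. Exposed means lie below control means in females for all 6, and in males for 5 of 6.

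Markers of muscle that can come with the dissection varied between rats more than between groups. miR-1-3p, the miRNA of heart and skeletal muscle, was the one miRNA with a difference of 1.5-fold or more over all rats, at 0.72 ± 0.90 (SE). Its control levels were 6.21, 4.46 and 5.62 in males and 4.30, 3.52 and 3.50 in females, and at 600 ppm they were 6.97, 4.71, 5.62 and 3.51, 4.29, 6.82, so that 1 exposed female and 1 exposed male were high. With the slide as a block its difference was -0.06. The striated muscle list had a median of 0.34 over all rats, 0.14 in the slide 1 males and -0.02 with the slide as a block. Among the slide 1 males it turned to -0.26 without exposed male 6 and to -0.080 without control male 2, and was 0.54 without exposed male 7 and 0.36 without control male 1. Over all rats it was 0.12 without exposed male 6 and 0.53 without control male 1.

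The ciliated cell list had 7 of 8 tested members above 0 over all rats, with a median of 0.19. In the slide 1 males the median was 0.06 and in females 0.30, and with the slide as a block it was 0.06. The male median of the ciliated airway cell list also hung on single rats, at 0.25 without control male 1, -0.084 without control male 2 and -0.025 without exposed male 6. The 4 miRNAs of the miR-34b and miR-34c genes differed by -0.11 to 0.15 in the exposed female on the slide of the controls and by 0.38 to 0.63 in the 2 females on slide 3. Exposure and slide cannot be told apart in the latter.

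Lists known from lung injury showed no common direction. miR-21-5p, induced in damaged epithelium and macrophages, differed by 0.08 ± 0.07 (SE) over all rats and its partner arm miR-21-3p by -0.09 ± 0.07. miR-212-3p differed by 0.03 ± 0.08. Of the 5 tested members of the injury and inflammation list, 3 were above 0 over all rats, 4 in the slide 1 males with a median of 0.12 (0.051 without control male 1), and 2 in females with a median of -0.16. miR-210-3p, the miRNA of hypoxia, differed by 0.10 ± 0.13.

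The structural lists had these medians, beside 0.02 for all miRNAs over all rats and 0.01 in the slide 1 males. The endothelial list had a median of 0.02 over all rats and -0.05 in the slide 1 males, and miR-126a-3p differed by 0.02 ± 0.06. The smooth muscle and fibroblast list had 0.08 and 0.01, the antifibrotic miR-29 list 0.04 and -0.09, let-7 0.05 and 0.04, miR-30 0.05 and 0.01, and the proliferative miR-17 and miR-106b clusters 0.01 and -0.04. None of these lists had a member that passed after adjustment.

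**Figure D5:**
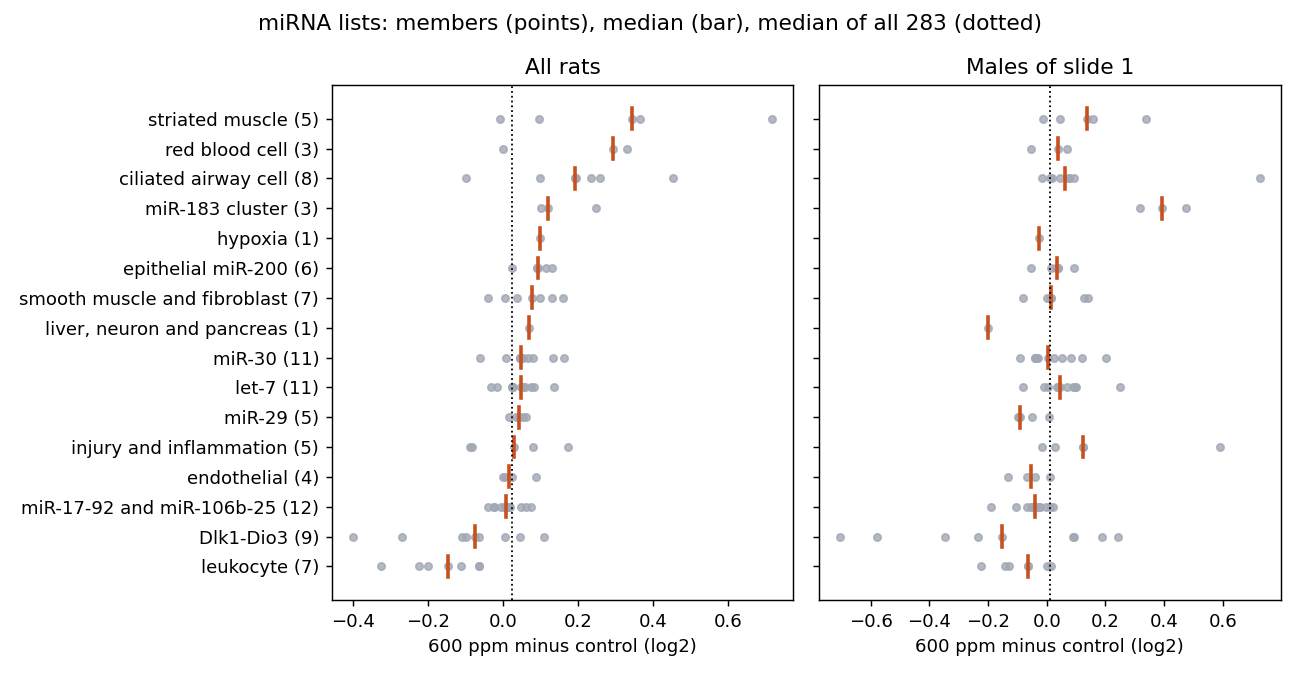
Difference between 600 ppm and control (log2) for the members of 16 miRNA lists (points, number tested in brackets) with the list median (bar) and the median of all 283 miRNAs (dotted line), over all rats and in the slide 1 males. Of lists with more than 1 member, the leukocyte list has the lowest median on the left with these settings, -0.15, and the miR-183 cluster the highest on the right, 0.39.

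Detection differed for few miRNAs. Of the 719 on the array, 216 were well above background on all 12 arrays and 399 on none. No miRNA was above background in all rats of a group and in none of the other. The number of rats with a signal differed by 4 or more of 6 for miR-130b-3p alone, with 6 controls and 2 exposed rats. Lower numbers at 600 ppm were also seen for miR-134-5p (6 against 3), miR-342-5p (4 against 1), miR-363-3p (5 against 2), miR-667-3p (5 against 2) and miR-6324, which was called above background in 3 of 3 control males and no other rat of either group. These calls come from the scanner software and do not measure a difference in level. miR-6324 was at 3.50, 3.95 and 3.50 in control males and at 3.50 in all 3 exposed males, and miR-342-5p was at the floor of 3.50 in all 6 males although called in 2 control males. The exposed arrays had 259 ± 21.3 miRNAs above background and the control arrays 274 ± 22.7 (SD, n = 6 each, exact permutation test, p = 0.288). In the slide 1 males the numbers were 269 ± 15.1 exposed and 292 ± 13.1 control (SD, n = 3 each, exact permutation test, p = 0.20). Their spots well above background were 33.9% and 36.6% (exact permutation test, p = 0.10).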

How the data were processed

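Total RNA from rat lung (100 ng per array per the labels) was labelled with Cy3 and hybridised to Agilent rat miRNA arrays. For every array the authors deposited a scanner file from Feature Extraction 11.5.1.1, whose processed intensity is corrected for background and not normalized between arrays, and a series table of intensity that equalled the total gene signal, with 58.7% of values set to 1. Further processing of these values is not given in the sources used here. The header names build rn4, and coordinates and sequences here are of GRCr8.

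Control spots and flagged spots were left out. Arrays were scaled so that the 75th percentile of the 394 probes that all 24 arrays detected became 865. Values under 11.3 (8.59% of kept spots) were set to that floor and log2 was taken, so differences of dim miRNAs are understated. Spots were averaged per probe and probes per miRNA, and probes detected on fewer than 6 of the 24 arrays were dropped, leaving 555 probes of 283 miRNAs, 211 of them above background on all arrays. The number of arrays limits the precision.

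Tests were two-sided and used limma 3.58.1 in R 4.3.3 and the R package data.table (version 1.17.8), with Benjamini-Hochberg adjusted p-values called below 0.05. The fit over all rats used all 24 arrays with dose group and sex. The slide 1 males were fitted alone, and the interaction with sex used the 12 arrays. Replicate numbers of the labels were not shared between groups, so no pairs existed, and the p-values rest on the spread between arrays of single rats. In the fit over all rats, which had no term for the slide, this spread also holds differences between slides. Brightness and detection were compared by exact permutation tests over arrays (6 tests). The miRNAs described are the 10 with the smallest p over all rats and in the slide 1 males, those with 1.5-fold or more in either, and the tested members of the injury, leukocyte and hypoxia lists, and others are named as examples of their list. The comparison, the lists and the rule were chosen with earlier results of these data known. Calculations were checked on simulated data. Alternatives covered scaling, background correction (normexp with an offset of 50 on the median spot intensity), filters, floor, probe choice, the total signal, the series table, the test, the slide and leaving out each rat.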

Additional observations from a re-analysis of the deposited data

Results flagged for a closer look

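In 66 sets of 6 rats, the control group or the 600 ppm group for each described miRNA and 2 measures of the arrays, the highest or lowest rat was examined for its gap to the nearest rat as a share of the range of the 6. The gap passed Dixon's 95% critical value in 2 sets, and chance gives about 1 in 20, or 3.3. At 600 ppm, male 7 had the lowest miR-223-3p, 8.51 against 9.15 ± 0.09 (SD) in the other 5 (share 0.698). At 600 ppm, female 26 had the lowest miR-505-3p, 4.97 against 5.34 ± 0.06 (SD) in the other 5 (share 0.656). Female 26 is the exposed female on the slide of the control females, whose miR-505-3p lay at 4.99, 5.06 and 5.10.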

How the results depend on the processing

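Over all rats, limma and the plain unpaired test called 0 miRNAs under all 28 alternatives, with an unadjusted p below 0.05 for 1 to 18 miRNAs, and the interaction with sex gave 0 under all 25 (0 to 159). In the slide 1 males, 16 of 19 alternatives gave 0. The unscaled series table called 1, miR-678, which was not above background in exposed males, and the median of all miRNAs there was -0.38. The plain unpaired test with equal variances called 1 after adjustment, miR-141-3p (0.09), and 1 at 1.5-fold with an unadjusted p below 0.05, miR-146b-5p. Leaving out 1 rat gave 0 to 0 calls in each of the 3 comparisons.

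Of 588 recomputed differences of described miRNAs over all rats 16 turned sign, and of 212 in the slide 1 males 2 did. None of these had passed a test. With normexp background correction, where the median of all miRNAs was 0.32, the signs turned for miR-130b-3p (0.35), miR-134-5p (0.26), miR-150-3p (0.25), miR-21-3p (0.39), miR-342-3p (0.080), miR-342-5p (0.38) and miR-6215 (0.29). With the unscaled series table they turned for miR-21-5p (-0.00090), miR-212-3p (-0.032) and, in the slide 1 males, miR-3593-3p (-0.17) and miR-96-5p (-0.059). With total gene signal they turned for miR-21-5p (-0.0015) and miR-212-3p (-0.033), with the slide as a block for miR-1-3p (-0.056) and miR-212-3p (-0.060), with the slide as a random block for miR-212-3p (-0.036) and miR-342-3p (2.2e-05), and without exposed male 7 for miR-212-3p, which ranged from -0.0095 to 0.099 over the rats left out. The cause was not tested. In the slide 1 males the difference of miR-182 ranged from 0.07 to 0.52 and that of miR-183-5p from 0.02 to 0.51, lowest in the unscaled series table.

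The design limits the reading in 3 ways. Exposed males 7 and 8 were in the second row of slide 1 and all control males in the first, so that place on the slide and group cannot be fully told apart. 2 of 3 exposed females shared no slide with a control. In dim miRNAs the floor hides differences, and values at it have no order. No paired analysis was possible because the replicate numbers were not shared between groups.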

Other observations

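Slide 1 also held 2 males exposed to 1000 ppm, which give levels measured on the same slide as the males at 600 ppm. Their miR-182 read 5.05 and 5.12, their miR-96-5p 7.06 and 7.26, and their miR-183-5p 4.55 and 4.69. The control males of the slide had 4.94 to 5.09, 7.09 to 7.31 and 4.57 to 4.64 for these miRNAs, and the males at 600 ppm 5.39 to 5.53, 7.43 to 7.63 and 4.76 to 5.26. All 3 miRNAs of the cluster were thus below the 600 ppm males in both rats. miR-449a-5p read 7.37 and 7.76 in the males at 1000 ppm, against 7.45 to 7.55 at 600 ppm and 6.18 to 7.32 in controls. miR-6215 read 4.41 and 4.16, against 4.18 to 4.33 at 600 ppm and 4.37 to 4.87 in controls. These values were looked up after the differences at 600 ppm were known, and no test was made on the 2 rats.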
